A study of Mus musculus with 62 samples.

Results

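Trimethylation of histone H3 at lysine 27 (H3K27me3) was compared between haematopoietic stem and progenitor cells (HSPCs) that had lost both Daxx and Pu.1 (DKO) and wild-type (WT) HSPCs. The genomic regions described are all autosomal sites of 1 deposited comparison, 57645 of the 61831 sites listed, with 4179 more on chromosome X and 7 on chromosome Y. Cleavage Under Targets and Tagmentation (CUT&Tag), in which an antibody tethers a transposase to the mark, had been run on 3 DKO and 3 WT mice, 6 of the 62 libraries of the series. The DKO mice carried floxed alleles of both genes (Daxx F/F and Pu.1 F/F) together with Cre +/-, and the WT mice were Daxx +/+ and also Cre +/-. All were C57BL/6, carried the interferon-inducible Mx1-Cre transgene and had received pI:pC, so recombination and an interferon stimulus need not have been limited to blood cells. Bone marrow cells depleted of lineage-positive cells and enriched for c-Kit were taken 8 weeks after the injections (w.p.i.), with 1 mouse to a library. Such a population mixes stem cells with several progenitors, and a lower share of one cell type cannot be told apart from less mark per cell.

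H3K27me3 is written by Polycomb repressive complex PRC2 and read by the Cbx proteins of PRC1. In blood progenitors it covers the promoters of silent lineage genes, Hox genes and developmental regulators, and it also spreads thinly over gene-poor chromatin. Daxx is a chaperone that places the histone variant H3.3 on heterochromatin and repeats, and Pu.1, encoded by Spi1, is an ETS transcription factor needed for myeloid and early B-cell fates.

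The listed sites had been picked by the study's own test on these same 6 libraries, so no second test was made on them. A site was called higher when all 3 DKO libraries lay above all 3 WT libraries, and lower when all 3 lay below. By this rule 26985 sites were higher in DKO, 46.8% of those listed, and 24525 were lower, 42.5%. The groups overlapped at the other 6135 sites. Which direction was the more frequent depends on the scaling of the libraries. After scaling to mean reads per window 22641 sites were higher and 24194 lower. After scaling by the median ratio to the mean library they were 23460 and 25351, and after rescaling within bins of GC content 19471 and 20276. The median ratio and the GC-bin factors were taken over the listed sites themselves, which by itself draws the 2 counts towards balance. Values are normalized read counts per site, and folds are ratios of group means after 1 normalized count was added to each. The median higher site was 3.34-fold above WT (median log2 difference +1.74, interquartile range 1.41 to 2.08). The median lower site was 3.20-fold below WT (-1.68, interquartile range -2.05 to -1.28). At higher sites the median count was 19.25, 27.95 and 22.88 in DKO 1, 2 and 3, and 7.0, 6.34 and 6.71 in WT 1, 2 and 3. At lower sites it was 6.79, 5.24 and 6.54 in DKO, and 22.74, 26.27 and 22.36 in WT. Differences in the 2 directions were of similar number and size.

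The libraries were shallow, with a mean of 1.20 to 2.87 reads per 600-bp window, and 1 read is worth close to 1 normalized count. DKO 2 was the deepest and was the highest of its group at 53.3% of the higher sites. DKO 1 differed from its group in another way, with the largest value at each of the 5 widest sites. The 2 other global scalings of the libraries lowered DKO relative to WT by 0.32 (median ratio to the mean library) and 0.27 (mean reads per window) on the log2 scale, and counts that turn on this are given under each.

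Sequences at the changed promoters show what kinds of promoter were involved. Named promoters whose 250 bases before the transcription start site (TSS) lay wholly inside a site numbered 13, and those that span the range of CpG content are printed, from RefSeq on GRCm38.p6, with every CG dinucleotide in capitals. The first set lies in sites higher in DKO. Ago4 encodes an Argonaute protein of small-RNA silencing, Hoxa7 a homeobox factor, Cdkn2c the cell-cycle inhibitor p18, and Fcgr1 the high-affinity IgG receptor of monocytes.
Ago4 promoter, chr4:126533459-126533708, minus strand: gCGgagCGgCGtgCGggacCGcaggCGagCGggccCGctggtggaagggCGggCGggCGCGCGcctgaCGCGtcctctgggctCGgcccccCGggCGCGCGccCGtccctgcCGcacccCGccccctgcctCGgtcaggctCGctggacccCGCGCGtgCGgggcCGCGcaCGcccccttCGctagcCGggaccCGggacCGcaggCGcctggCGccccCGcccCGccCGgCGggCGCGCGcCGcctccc
Hoxa7 promoter, chr6:52218574-52218823, minus strand: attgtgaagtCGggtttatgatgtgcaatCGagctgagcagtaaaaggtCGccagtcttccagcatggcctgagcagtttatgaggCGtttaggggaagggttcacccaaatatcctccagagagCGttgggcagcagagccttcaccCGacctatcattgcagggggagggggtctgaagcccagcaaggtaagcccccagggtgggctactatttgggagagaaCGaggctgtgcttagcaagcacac
Cdkn2c promoter, chr4:109665373-109665622, minus strand: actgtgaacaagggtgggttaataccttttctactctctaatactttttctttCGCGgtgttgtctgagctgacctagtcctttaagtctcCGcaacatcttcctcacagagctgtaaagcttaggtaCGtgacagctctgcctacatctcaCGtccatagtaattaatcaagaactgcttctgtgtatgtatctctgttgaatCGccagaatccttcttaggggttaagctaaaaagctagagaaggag
Fcgr1 promoter, chr3:96293970-96294219, minus strand: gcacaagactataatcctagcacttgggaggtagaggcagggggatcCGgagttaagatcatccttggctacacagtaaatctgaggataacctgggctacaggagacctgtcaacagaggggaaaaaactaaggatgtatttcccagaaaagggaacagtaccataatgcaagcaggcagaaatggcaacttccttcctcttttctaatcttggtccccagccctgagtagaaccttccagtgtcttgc
Next come promoters in sites lower in DKO. Meox2 encodes a mesodermal homeobox factor, Mcf2l a guanine nucleotide exchange factor, and Kcnk2 a tandem-pore-domain potassium channel.
Meox2 promoter, chr12:37108290-37108539, plus strand: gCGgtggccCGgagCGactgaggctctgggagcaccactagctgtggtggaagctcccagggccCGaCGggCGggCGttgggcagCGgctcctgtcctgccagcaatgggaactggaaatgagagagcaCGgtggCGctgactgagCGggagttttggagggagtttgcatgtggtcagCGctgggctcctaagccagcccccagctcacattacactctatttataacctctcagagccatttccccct
Mcf2l promoter, chr8:12947628-12947877, plus strand: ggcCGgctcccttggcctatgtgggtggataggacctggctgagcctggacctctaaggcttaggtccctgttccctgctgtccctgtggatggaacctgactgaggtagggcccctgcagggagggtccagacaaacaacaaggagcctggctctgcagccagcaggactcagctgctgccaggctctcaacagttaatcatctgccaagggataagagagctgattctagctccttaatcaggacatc
Kcnk2 promoter, chr1:189402274-189402523, minus strand: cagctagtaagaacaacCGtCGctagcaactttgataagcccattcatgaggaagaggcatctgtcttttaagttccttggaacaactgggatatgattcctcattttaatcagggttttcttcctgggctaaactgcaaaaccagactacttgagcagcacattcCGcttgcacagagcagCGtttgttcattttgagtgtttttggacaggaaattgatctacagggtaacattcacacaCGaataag
The Ago4 window holds 46 CpGs and that of Fcgr1 holds 1. Among the lower promoters, Meox2 holds 12, Kcnk2 holds 5 and Mcf2l holds 1. CpG-poor promoters thus stand in both directions. Ago4 stands apart from the other higher windows as well, of which Smo, not printed, holds the most with 15.

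Promoters were taken as sites within 1 kb of the TSS of any annotated transcript, so some lie at starts inside a gene. They made up 13.5% of higher sites (3646 sites, 95% Wilson interval 13.1 to 13.9) and 11.9% of lower sites (2909 sites, 11.5 to 12.3), where intervals cover counting error only and sites are not replicates. Of 20780 autosomal protein-coding genes, 4112 had a promoter site. It was higher for 1931 genes, 9.29% of all, and lower for 1393, 6.70% of all, with 94 genes in both counts. This excess of higher promoters depends on the scaling. It was smaller after scaling to mean reads per window, with 1338 genes higher and 1278 lower. It was also smaller after the median-ratio scaling (1528 and 1475), whose factors come from the listed sites. Rescaling within GC bins widened it to 1837 and 990. Promoters with a CpG ratio (observed over expected) of 0.6 or more were higher in 44.3% of the sites with a direction, against 56.4% below that ratio.

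The promoters with the widest gaps in the higher direction included those of a chemokine, a platelet factor and a collagen. Ccl2, the chemokine that draws monocytes (site chr11:82033751-82034900, mm10), had 26.04, 29.69 and 35.96 normalized counts in DKO 1, 2 and 3 and no read in any WT library. That is at least 31.6-fold higher, taking 3 reads over the WT group as the floor. Vwf, the von Willebrand factor of platelets and endothelium, had 11.32, 15.72 and 16.34 in DKO and 0 in each WT library, at least 15.0-fold higher. The same held for Col4a1, a basement-membrane collagen (11.32, 12.23 and 19.61, at least 14.9-fold), and for Ms4a3, a gene of granulocyte-monocyte progenitors (10.19, 10.48 and 22.88, at least 15.0-fold). Acp5, Ubl3, Anp32a, Dcst1 and Clec10a, the last a lectin of macrophages and dendritic cells, also had no read in any WT library and were at least 10.9-fold to at least 15.2-fold higher. No read in these shallow WT libraries does not show that the mark was absent. Of these promoters only Vwf and Anp32a overlapped a site listed at 24 w.p.i., where WT libraries were deeper (9.58 and 4.27 reads per window). WT had 50.41 and 48.55 counts at Vwf there, above 12.76 and 31.28 in mice without Daxx alone, the reverse direction. At Anp32a WT had 48.55 and 32.84, below 110.88 and 112.23.

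Other promoters carried signal in both groups and were much stronger in DKO. Prdm2, which encodes a PR-domain methyltransferase-family zinc-finger protein, had 293.21, 277.73 and 277.86 counts in DKO and 22.74, 21.74 and 15.65 in WT over a 6300-bp site (chr4:143208951-143215250), a 13.5-fold difference. Ago4 (chr4:126530251-126535500) had 464.15, 322.27 and 333.43 in DKO and 29.74, 12.68 and 33.54 in WT, 14.2-fold. Bmpr2, a receptor for bone morphogenetic proteins (chr1:59764201-59768700), had 408.68, 254.15 and 153.64 against 14.87, 16.30 and 17.89, 15.7-fold. At each of the 3 genes the lowest DKO library was more than 8 times the highest WT library.

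Promoters lower in DKO included those of a kinase, an ectoenzyme and several predicted genes. Prkcz, an atypical protein kinase C (chr4:155299601-155304350, over 1 of its annotated transcript starts), had 24.91, 2.62 and 31.60 counts in DKO and 189.80, 165.77 and 248.17 in WT, a 9.77-fold difference. Stox2 had 6.79, 5.24 and 5.45 in DKO and 41.98, 44.39 and 38.01 in WT, 6.22-fold lower. Mcf2l, whose sequence is shown above, had 7.92, 5.24 and 5.45 against 41.98, 38.04 and 41.36, 5.76-fold lower. Enpp1, an ectoenzyme that makes pyrophosphate, had 4.53, 0 and 3.27 in DKO against 27.99, 26.27 and 33.54. No read was present in DKO at Sprr2i, a cornified-envelope gene, or at Gm8897, both at least 11.6-fold lower. Gm8897, Gm5861, Gm7347 and Gm8906 lie on chromosome 5 and reads could be shared between near-identical copies of such predicted genes, so these 4 are uncertain. Ube2l6, which conjugates ISG15 to proteins, held 1 read in the 3 DKO libraries together and 13.12, 12.68 and 11.18 counts in WT. The olfactory receptor gene Olfr145 had 2.26, 0 and 3.27 in DKO and 18.37, 19.93 and 20.12 in WT.

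**Figure D1:**
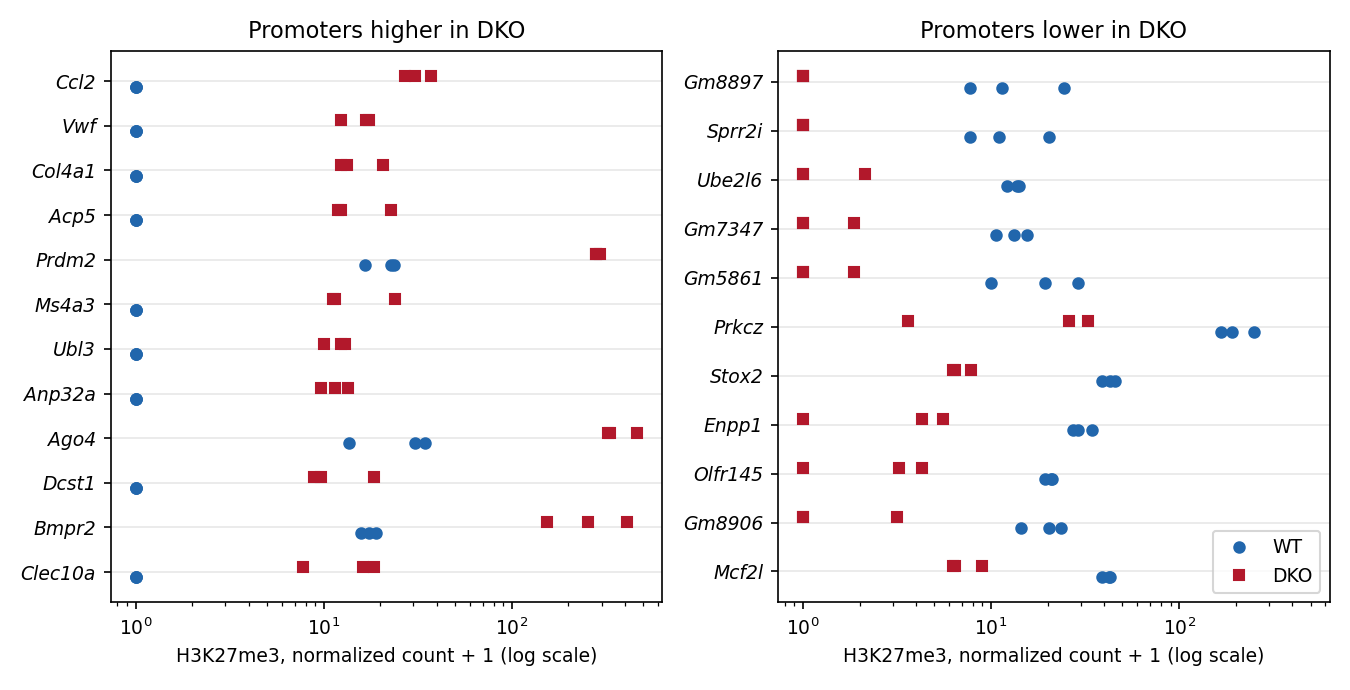
H3K27me3 at promoters with the widest gap between groups, 12 higher and 11 lower in DKO, as normalized count + 1 on a log axis. Each square is a DKO library and each circle a WT library. At Ccl2 the DKO squares lie between 26.04 and 35.96 counts and the 3 WT circles coincide at 0, drawn at 1.

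Away from promoters, gaps of the same kind occurred in both directions. A site 132 kb from the TSS of Klhl29 had 20.38, 65.50 and 37.05 counts in DKO and no read in WT, at least 42.4-fold higher. Sites without a WT read also lay in Megf11 (55.1 kb from the TSS) and Tle4, a Groucho co-repressor (16.9 kb), and near Skil, a repressor of Smad signalling (2.22 kb). On the other side, a site 409 kb from the TSS of Ptprc, the nearest gene, had no read in DKO and 20.99, 39.86 and 31.30 counts in WT, at least 29.8-fold lower. Sites 114 kb from the TSS of Ncald, 21.4 kb from that of Tcp10c and 5.8 kb from that of Cd209c likewise had no DKO read. Each WT library had 16.30 to 27.17 counts there.

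Direction followed the genomic neighbourhood. Higher sites lay a median 15.3 kb from a TSS and lower sites 30.6 kb, although 42.4% and 44.6% lay inside a gene body. In 1-Mb bins with 1 to 2 protein-coding genes 31.8% of sites with a direction were higher, and in bins with over 30 genes 79.5% were. Bins without a gene stood at 38.6%, slightly above the next class. The difference was present in each class of GC content, from 68.7% at up to 5 genes to 91.5% at over 20 genes for sites under 40% GC, and from 12.02% to 58.4% for sites of 52% GC and over. It was kept by the median-ratio scaling, the scaling to mean reads and a rescaling within GC bins, with 72.3% to 79.1% higher in bins of over 20 genes and 29.7% to 35.2% in bins of at most 5 genes. Chromosome 19 had the largest share of higher sites, 75.8%, and chromosome 12 the smallest, 41.5%.

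**Figure D2:**
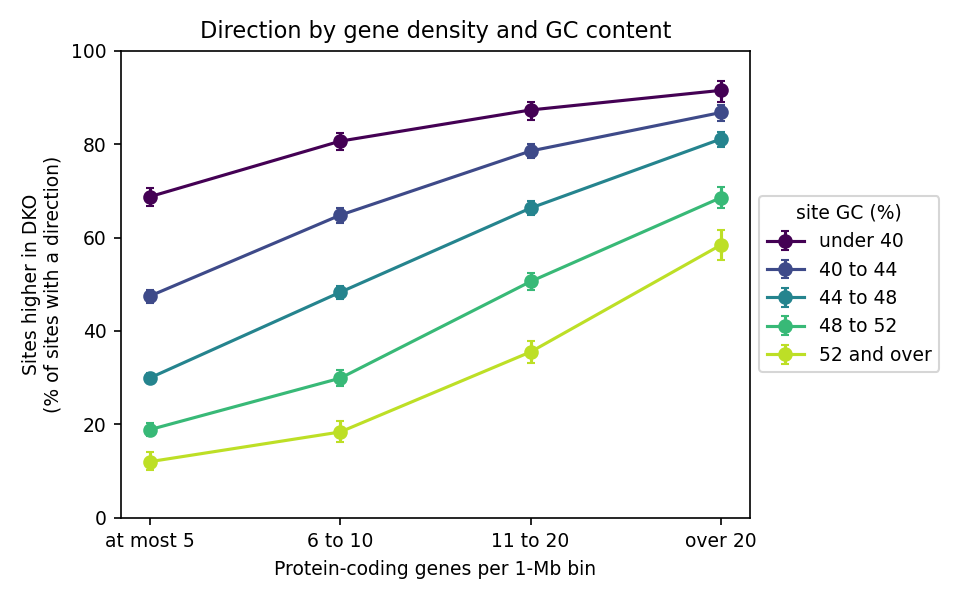
Share of sites higher in DKO (% of sites with a direction) against the number of protein-coding genes in the 1-Mb bin, with 1 line for each class of site GC content and bars for 95% Wilson intervals. Each line climbs with gene density, from 12.02% to 58.4% in the most GC-rich class and from 68.7% to 91.5% in the most GC-poor one.

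GC content also moved with direction. Of sites under 40% GC 78.2% were higher, and of sites at 52% or over 30.7% were. The libraries did not share this equally. Under 40% GC the median log2 value relative to the mean of the 6 libraries was -0.20 in DKO 1, +0.91 in DKO 2 and +0.45 in DKO 3, against -0.92, -0.74 and -1.26 in WT 1, 2 and 3. At 52% or over it was -0.17, -0.73 and -0.66 in DKO and +0.05, -0.06 and +0.26 in WT. A bias of single libraries by base composition was not tested, and rescaling within GC bins removes the trend by construction (39.5% higher under 40% GC, 54.5% at 52% or over). At equal GC content promoters were higher more often than distal sites by 10.2 percentage points. Without matching on GC the shares were 55.6% and 51.9%, and they were close to equal after the 2 global scalings (48.7% and 48.3% for mean reads per window, 48.2% and 48.04% for the median ratio).

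**Figure D3:**
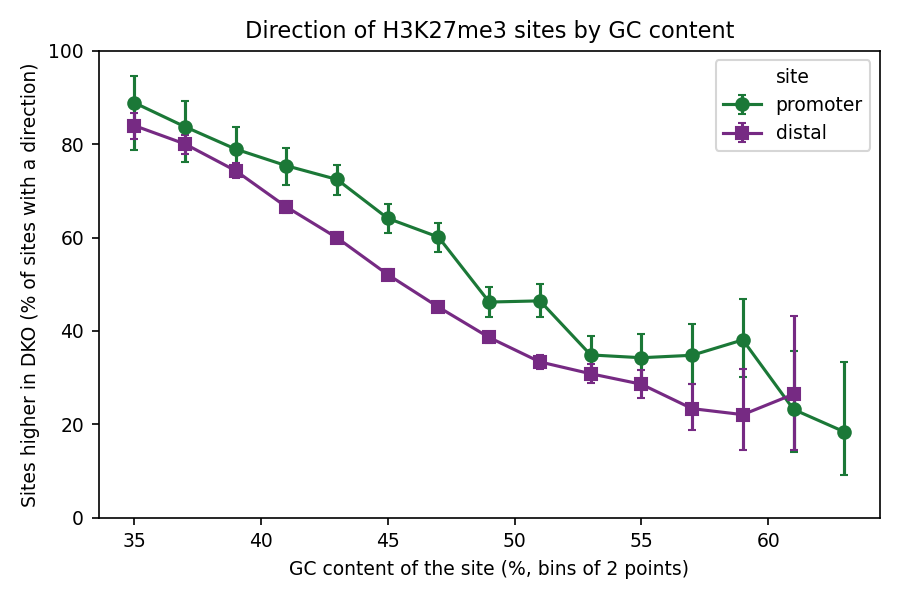
Share of sites higher in DKO (% of sites with a direction) in bins of 2 points of GC content, for promoter sites within 1 kb of a TSS (circles) and distal sites (squares), with 95% Wilson intervals. The share falls with GC content for both kinds, and the promoter points lie above the distal ones in the bins below 60% GC.

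Changes ran in domains. Neighbouring sites less than 2 kb apart had the same direction in 93.7% of pairs, those 2 to 10 kb apart in 83.5%, and those 100 to 500 kb apart in 64.4%, beside 50.1% given by the shares of higher and lower sites alone. Of 818 blocks of 2 Mb with at least 20 sites with a direction, 107 were at least 90% higher and 40 at least 90% lower. The former held a median of 28 protein-coding genes and the latter 7. Single blocks were chosen after their values were seen, and their counts cover only sites with a direction. All 106 such sites of chromosome 9 from 28 to 30 Mb, over Ntm, were lower. So were 174 of 177 on chromosome 1 from 186 to 188 Mb, over Tgfb2 and Esrrg. Among the higher blocks, 121 of 122 sites on chromosome 5 from 32 to 34 Mb (Fosl2, Ppp1cb, Ctbp1) and all 55 on chromosome 10 from 66 to 68 Mb (Jmjd1c, Egr2) were higher.

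**Figure D4:**
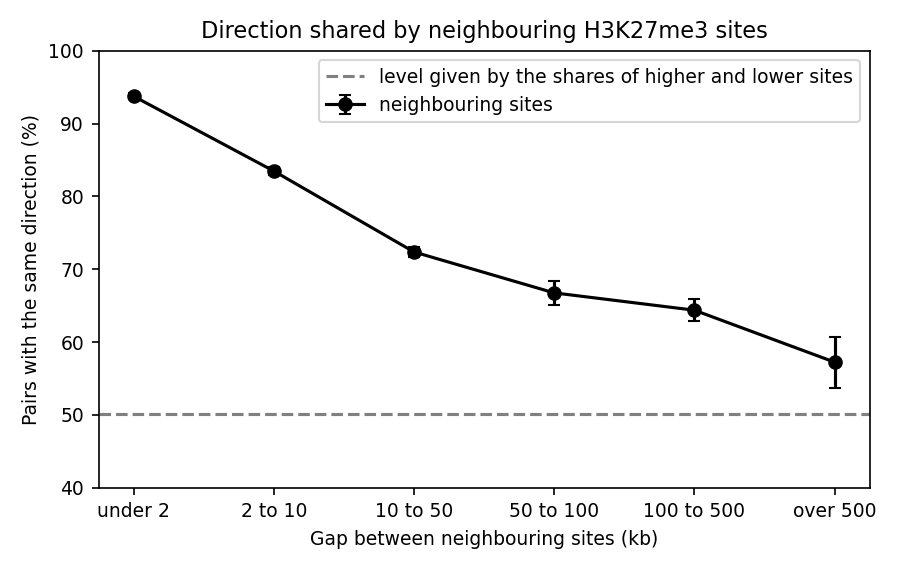
Share of neighbouring site pairs with the same direction against the gap between them in kb, with 95% Wilson intervals. The dashed line is the level given by the overall shares, 50.1%, and the points descend from 93.7% under 2 kb to 57.3% over 500 kb.

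Single gene bodies showed the domains at gene scale. Dscaml1, a neuronal adhesion molecule, held 69 higher sites and no lower one among 70, with median counts of 20.38, 22.71 and 23.97 in DKO and 3.5, 3.17 and 4.47 in WT. Atp8a2, a phospholipid flippase, held 55 higher sites and 1 lower. Ntm, which encodes the adhesion molecule neurotrimin, went the other way, with 73 lower sites and none higher among 74 and medians of 2.26, 3.49 and 4.36 in DKO against 19.24, 23.1 and 17.33 in WT. Esrrg, an orphan nuclear receptor, held 90 lower sites and 2 higher, and Ptprn2, a phosphatase-like protein of secretory granules, 74 and 14. The 3 other gene models with the most sites, Fgfr2 (2961 kb), Gm20388 (4435 kb) and Gm37240 (1391 kb), are long models that run over other genes, and are not read as single genes. Of 199 genes with at least 20 sites, 18 had at least 90% of them higher and 45 at least 90% lower. Under all 3 rescalings Dscaml1 had at least 61 higher and no lower site, and Ntm at least 71 lower and no higher site.

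Wide sites were mostly higher, with 81 of at least 5 kb higher and 18 lower, beside 52.4% higher among all sites with a direction. The examples here were taken by length after their values were seen. The widest, 14350 bp over the promoter of the kinase gene Pak1, had 1635.86, 1391.28 and 1240 counts in DKO and 500.31, 461.97 and 452.74 in WT. Meis1, a homeobox partner of Hox proteins in stem cells, had 1981.14, 606.12 and 999.19 in DKO against 337.62, 242.76 and 279.47 in WT over 12850 bp, 4.16-fold. The widest lower site, 9600 bp in an intron of Ebf1, had 153.96, 111.79 and 91.53 in DKO and 453.08, 595.13 and 462.80 in WT, 4.20-fold. In Arpp21, a 5100-bp site had 35.09, 36.68 and 32.69 in DKO and 531.80, 477.37 and 382.31 in WT, 12.98-fold.

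Hox genes, the classical Polycomb targets, had a large share of higher promoters on the deposited scale, and also of listed promoter sites. Of 39 Hox genes 21 had a promoter site, against 4112 of 20780 protein-coding genes. Of the 39, 13 were higher and none lower, or 33.3% and 0%, beside 9.29% and 6.70% of all genes. The higher count was 8 after the median-ratio scaling, 0 after scaling to mean reads per window and 18 after rescaling within GC bins. The median promoter-site log2 difference of Hox genes was +0.96, equal to the +0.96 over the promoter sites of all protein-coding genes. Hoxa7 and Hoxa9, which encode factors that sustain progenitor growth, share a 9200-bp site with 1913.22, 487.34 and 598.21 counts in DKO and 218.67, 226.46 and 299.59 in WT, 4.01-fold, with DKO 1 more than 3 times DKO 2. Hoxc13 had 70.19, 62.01 and 65.38 against 41.11, 32.61 and 41.36, 1.70-fold. Neither call held after scaling to mean reads per window. Beyond Hox genes, 168 developmental transcription factors gave 22 higher and 16 lower, or 13.1% and 9.52%, beside 9.29% and 6.70% of all genes. This turned to 11 higher and 25 lower after the median-ratio scaling, 8 and 16 after scaling to mean reads and 24 and 33 without DKO 1, and was 31 and 14 after rescaling within GC bins. Meox2 had 279.62, 243.67 and 179.79 in DKO against 698.86, 573.39 and 433.74 in WT, 2.42-fold lower. Myf5, a regulator of muscle fate, was 2.65-fold lower. Pitx3 was 2.30-fold higher, a call lost on rescaling within GC bins. Genes of Wnt, Notch, Hedgehog and BMP signalling (89) were higher in 15 and lower in 11. These are 16.9% and 12.4%, both above the shares of all genes. This order turned to 10 and 12 or 7 and 9 after the 2 global scalings and was 22 and 4 after rescaling within GC bins, 15 and 16 without DKO 1 and 27 and 11 without DKO 3. The Hedgehog transducer Smo had 189.06, 127.51 and 205.94 against 55.10, 32.61 and 49.19, 3.76-fold higher.

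Of 36 genes of the Polycomb machinery 5 were higher, 13.9%, and none lower, with 4, 2 and 7 higher after the median-ratio, mean-read and GC-bin scalings and 10 without DKO 3. Phc2, a PRC1 subunit, had 7.92, 19.21 and 54.48 counts in DKO and 2.62, 0 and 0 in WT. Its paralogue Phc1 had 16.98, 34.93 and 21.79 against 7.0, 3.62 and 2.24, 4.84-fold. Epop, a modulator of PRC2, had 484.53, 219.22 and 275.68 against 137.32, 107.79 and 146.44, 2.49-fold, and Cbx2, a reader of the mark, was 1.71-fold higher, and neither call held after scaling to mean reads per window. Among 40 genes of H3.3 and H3K9 silencing, 3 were higher and none lower, and the counts were the same under all 3 rescalings. Setdb1, an H3K9 methyltransferase, had 93.96, 42.80 and 28.33 in DKO against 15.74, 10.87 and 13.41 in WT, 3.91-fold. Mphosph8, a subunit of the HUSH complex, was 6.08-fold higher, and Tet1, a 5-methylcytosine oxidase, had 46.42, 40.18 and 138.38 against 7.0, 7.25 and 5.59, 9.98-fold. The share of this list that was higher, 7.50%, lies below the 9.29% of all genes.

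Lists of blood-lineage genes are read against all protein-coding genes, of which 9.29% were higher and 6.70% lower. Stem-cell self-renewal genes (45) were higher in 9 and lower in 1, or 20.0% and 2.22%. They include Tek, the angiopoietin receptor of quiescent stem cells, with 66.79, 96.07 and 94.80 in DKO against 28.86, 24.46 and 16.77 in WT, 3.57-fold, a call lost on rescaling within GC bins. Esam, an adhesion molecule of stem cells, was 4.27-fold higher, and Eya1 had 104.15, 195.63 and 115.50 against 37.61, 26.27 and 15.65, 5.07-fold. Hlf was the lower member. Across the 3 rescalings the list kept 6 to 12 higher and 1 lower.

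Myeloid and neutrophil genes (59) were higher in 10 and lower in 1, or 16.9% and 1.69% beside 9.29% and 6.70% of all genes, and 8 to 9 were higher under the rescalings. Fcgr1 had 72.45, 50.66 and 107.87 counts in DKO and 5.25, 12.68 and 15.65 in WT, 6.4-fold. Epx, the eosinophil peroxidase, had 33.96, 34.93 and 34.87 against 7.0, 5.43 and 12.30, 3.85-fold, and Siglece, an inhibitory lectin of neutrophils, 32.83, 25.33 and 23.97 against 7.87, 0 and 4.47, 5.55-fold. Irf8, Klf4, Cd14 and Fpr2 were also among the higher members, and Chil3 was the lower one.

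Among B-lineage genes (41) 10 were higher and 2 lower, or 24.4% and 4.88%, with Cd22 in both counts, and 6 to 10 were higher under the rescalings. The higher ones included Pax5, Foxo1 and Bach2. Cd24a, a surface antigen of B progenitors, had 410.95, 405.24 and 252.79 in DKO against 54.23, 39.86 and 55.89 in WT, 7.01-fold. Ikzf3, the lymphoid factor Aiolos, was 3.73-fold higher. Ebf1, which specifies the B lineage, was lower at a transcript start inside the gene, with 16.98, 6.99 and 15.25 against 50.73, 81.52 and 49.19, 4.37-fold. That site begins at base 44909851 of chromosome 11, well downstream of the gene's first base at 44617317. In the gene body 70 of the 76 sites were lower. The other lists of blood cells gave smaller counts. T and NK-lineage genes (49) were higher in 6 and lower in 3, or 12.2% and 6.12%, and 3 to 5 were higher and 2 to 4 lower under the rescalings. Cd3g, a subunit of the T-cell receptor complex, was 2.73-fold higher, lost on rescaling within GC bins, and Tbx21, which directs type 1 helper fate, had 240.00, 212.23 and 221.20 against 102.34, 85.15 and 97.26, 2.35-fold. Erythroid and megakaryocyte genes (47) were higher in 6 and lower in 1, or 12.8% and 2.13%, with Ank1 in both counts, and 4 to 6 were higher under the rescalings. Mast-cell and basophil genes (24) gave 2 and 1, or 8.33% and 4.17%, and neither of the higher calls, Cd200r3 and Tph1, held under the 2 global scalings.

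Inflammatory cytokine and receptor genes (58) were higher in 9 and lower in 3, or 15.5% and 5.17% beside 9.29% and 6.70% of all genes, and 8 to 11 were higher under the rescalings. Besides Ccl2, the higher ones included Il1a (16.98, 13.97 and 14.17 against 0, 2.72 and 3.35, 5.31-fold) and the alarmin Il33 (11.32, 16.59 and 17.43 against 2.62, 3.62 and 0, 5.23-fold). Cxcl2, Il12b, Tlr2 and Tnfrsf1a were also higher. Tgfb2 was lower, with 18.11, 10.48 and 10.90 against 65.60, 48.91 and 79.37, 4.63-fold, as were Tgfb3 and Il34. Of 48 interferon and nucleic-acid sensing genes 3 were higher, 6.25%, and none was lower. Oas1g, a sensor of double-stranded RNA, had 58.87, 39.30 and 71.92 against 7.0, 9.06 and 8.94, 6.18-fold. Irf5 was 4.35-fold higher, and Oas2 had 10.19, 12.23 and 13.08 against 0, 0 and 5.59.

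Other lists covered the cell cycle, metabolism and large gene families. Of 32 CDK inhibitor and cell-cycle genes 3 were higher and 1 lower, or 9.4% and 3.1% beside 9.29% and 6.70% of all genes. Without DKO 3 the higher count was 7. Cdkn2c had 57.74, 100.44 and 50.12 in DKO against 5.25, 11.78 and 4.47 in WT, 8.62-fold. Cdkn1c, which keeps stem cells quiescent, was 2.06-fold higher, a call lost under all 3 rescalings. Glycolysis and gluconeogenesis genes (44) were higher in 5 and lower in 1, or 11.4% and 2.27%, with the pyruvate kinase gene Pklr 2.04-fold higher. Solute carrier genes (352) were higher in 56 and lower in 21, 15.9% and 5.97%, with 38 to 51 higher under the rescalings. Zfp zinc-finger genes (383) were higher in 21, or 5.48%, and lower in 10. Olfactory and vomeronasal receptor genes (1441) gave 60 higher and 55 lower, 4.16% and 3.82%, and after rescaling within GC bins 35 and 48. Imprinted genes (51) gave 9 and 8, or 17.6% and 15.7%. Keratin and keratin-associated genes (110) gave 10 and 8, or 9.09% and 7.27%, near the shares of all genes. Replication-dependent histone genes (67) gave 1 and 0, or 1.49% and 0%, and none of the 64 defensin genes had a promoter site.

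In the neuronal receptor and channel, collagen and cadherin lists, lower promoters outnumbered higher ones on the deposited scale. Of 61 genes for glutamate, GABA, glycine and acetylcholine receptors 19 were lower and 7 higher, or 31.1% and 11.5% beside 6.70% and 9.29% of all genes, and 16 to 22 were lower under the rescalings. Grik1, a kainate receptor subunit, had 76.98, 72.49 and 44.67 counts in DKO and 216.04, 182.07 and 198.98 in WT, 3.04-fold lower, and Grm2 was 3.38-fold lower. Potassium channel genes (91) were lower in 24 and higher in 14, or 26.4% and 15.4%, which became 13 lower and 18 higher after rescaling within GC bins. Kcnk2 had 5.66, 5.24 and 4.36 against 18.37, 18.12 and 17.89, 3.14-fold lower, and Kcne4, an auxiliary subunit, had 6.79, 3.49 and 8.72 against 41.11, 31.70 and 46.95, 5.58-fold lower.

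Collagen genes (42) were lower in 16 and higher in 7, or 38.1% and 16.7%, with Col7a1 and Col13a1 in both counts, and 10 were lower and 7 higher after rescaling within GC bins. Col4a3 had 11.32, 17.47 and 14.17 in DKO against 78.72, 101.45 and 76.02 in WT, 5.64-fold lower, while Col4a1, of the same family, was higher as given above. Protocadherin and cadherin genes (89) were lower in 15 and higher in 7, or 16.9% and 7.87% beside 6.70% and 9.29% of all genes, and 8 to 16 were lower under the rescalings. Pcdhac1 had 47.55, 63.76 and 65.38 against 154.82, 162.14 and 138.62, 2.55-fold lower. The median promoter-site log2 difference was -0.92 for the neurotransmitter receptors, -0.90 for collagens, -0.84 for protocadherins and cadherins and -0.66 for potassium channels.

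**Figure D5:**
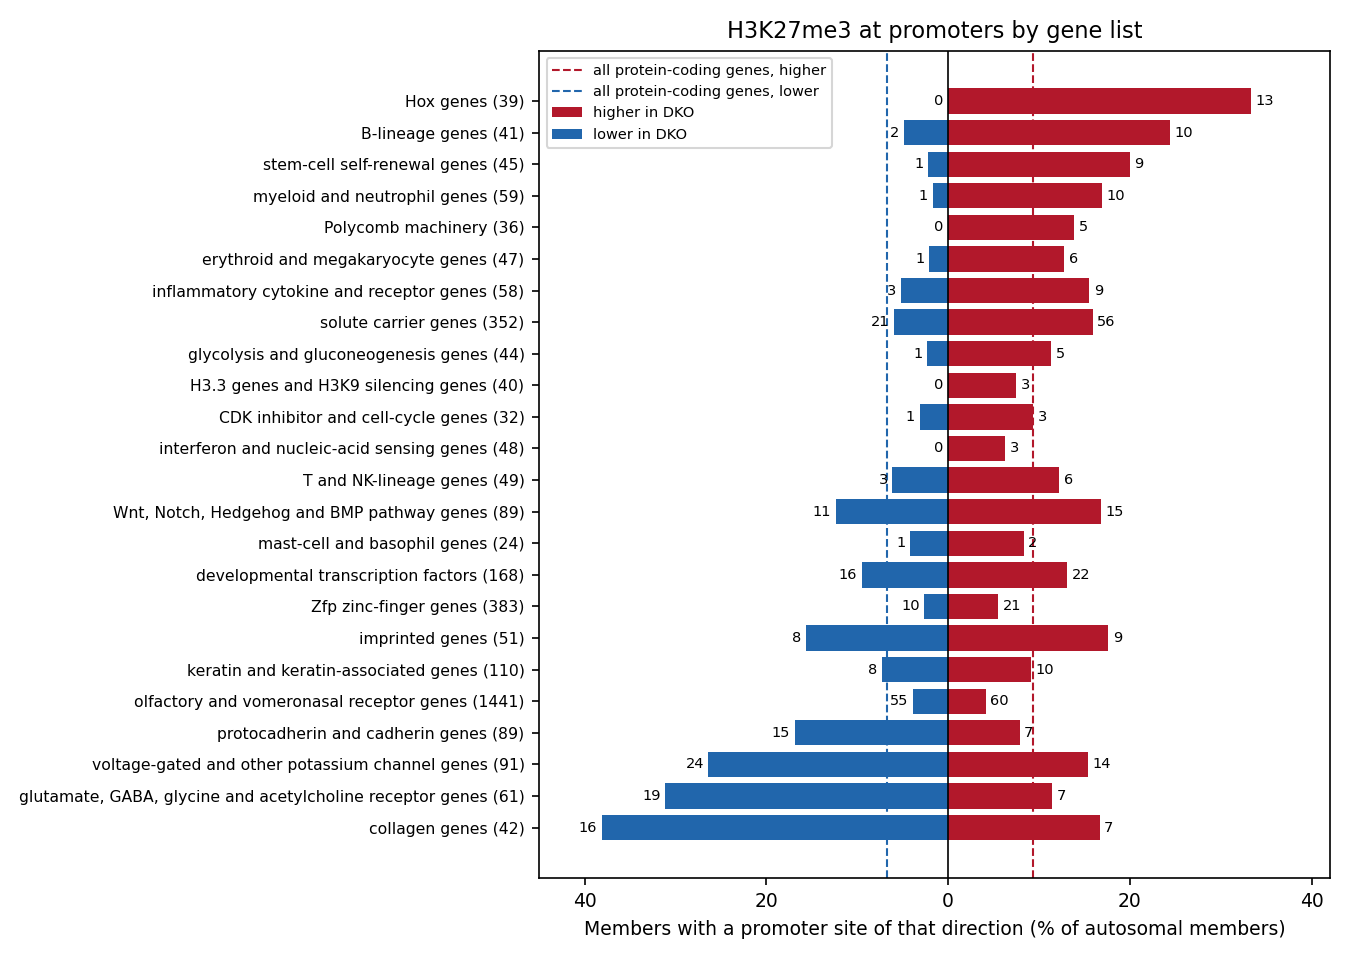
Share of the autosomal members of each gene list with a promoter site higher (right) or lower (left) in DKO, with the number of genes at the bar end and the list size in parentheses. Dashed lines mark all protein-coding genes, 9.29% higher and 6.70% lower; Hox genes lie at 33.3% higher, 0 genes after scaling to mean reads per window, and collagens at 38.1% lower.

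The loci of the deleted genes held no listed site. The nearest sites lay 94.1 kb from Daxx and 138 kb from Spi1. Near Fbp1 and Fbp2, neighbouring genes of a gluconeogenic enzyme, 6 sites were listed within 50 kb, 3 higher and 3 lower. The site closest to the Fbp1 TSS, 1.07 kb away, had 7.92, 6.11 and 3.27 counts in DKO and 26.24, 24.46 and 8.94 in WT, 3.09-fold lower. A site 21.7 kb from it had 21.51, 26.20 and 27.24 against 5.25, 2.72 and 2.24, 5.90-fold higher. A site in an exon of Fbp2 had 4.53, 0 and 3.27 counts in DKO and 12.25, 14.49 and 8.94 in WT, 3.58-fold lower. The sites in or next to the 2 genes were thus lower, and the 3 higher sites lay outside both gene bodies. Directions were mixed only with the flanks counted. The study reported a substantial loss of H3K27me3 over this locus in DKO cells. The Pu.1-type word GAGGAAGT, searched on both strands of 300-base promoter windows, occurred in 3.25% of 31396 autosomal windows. For genes with a higher promoter site it occurred in 3.08% of windows (59 of 1914, 95% Wilson interval 2.40 to 3.96). For genes with a lower one it was 1.65% (23 of 1390, 1.11 to 2.47). The windows of these genes need not lie in the changed sites. They held medians of 14 (higher) and 11 (lower) CpGs, against 7 over all windows. No binding was measured here and the letters alone are no site.

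The 3 DKO libraries were also set against 3 Daxx F/F (Daxx-KO) libraries at 8 w.p.i. in another comparison, whose sites have other bounds and scaling. It lists only sites that had been found to differ between DKO and Daxx-KO, and 38.4% of the sites described here overlapped it. Since both comparisons share the DKO libraries, their values are given side by side. At the overlapping Ccl2 site Daxx-KO had 0.82, 4.35 and 2.63 and DKO 28.88, 34.18 and 40.94. At Ago4 Daxx-KO had 104.60, 85.86 and 97.39 and DKO 495.96, 356.83 and 353.58. At Cd24a the Daxx-KO values were 49.42, 82.60 and 44.75 and those of DKO 455.78, 466.39 and 287.83. At the Prkcz promoter, lower in DKO, Daxx-KO had 144.96, 199.98 and 108.58 and DKO 27.62, 10.05 and 32.26. At these 4 promoters, chosen after their values were seen, the groups did not overlap and Daxx-KO lay on the side of DKO on which WT lay. Sites had been listed for a gap between DKO and Daxx-KO, so these values do not measure how close Daxx-KO was to WT. Pklr, higher in DKO than in WT, went the other way, since DKO counts of 94.17, 84.43 and 74.44 all lay below the Daxx-KO counts of 233.09, 97.82 and 107.26.

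At 24 w.p.i. Daxx-KO was compared with WT, with 2 mice each and no library in common with the 8-week comparison. Of 17166 overlapping site pairs with a direction in both tables, 60.1% had the same direction (59.4 to 60.8). Sites higher in DKO were higher in Daxx-KO in 67.3% of pairs, and sites lower in DKO were higher there in 48.3%, while 41.8% of all sites of the 24-week table with a direction were higher. The share with the same direction was 63.8% for promoters and 59.3% for distal sites. Tet1 is an example of the same direction, with 88.54 and 168.35 counts in Daxx-KO at 24 w.p.i. and 39.21 and 57.11 in WT, and Epx had 198.63 and 191.35 against 86.82 and 97.09. Cd24a had 232.93 and 399.26 against 1113.78 and 1342.17, the reverse of DKO at 8 w.p.i., and the shared Hoxa7 and Hoxa9 site had 839.97 and 788.40 against 1142.73 and 1105.15. Genotype and age at sampling both differ between these comparisons and cannot be told apart.

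H3K9me3, the mark of constitutive heterochromatin, had been profiled in DKO and WT as well. Its listed sites rarely met those of H3K27me3, with 426 of the 57645 sites (0.739%) in 440 overlapping pairs. Of 313 pairs with a direction for both marks, 250 had opposite directions, 79.9% (95% Wilson interval 75.1 to 83.9). In 211 of these H3K27me3 was lower and H3K9me3 higher in DKO, and in 39 the reverse held. In 56 pairs both marks were higher and in 7 both were lower, so H3K9me3 was higher in 96.8% of the pairs with lower H3K27me3 and in 58.9% of those with higher H3K27me3, and opposite directions were the majority in the former alone. The H3K9me3 libraries of DKO were thin, with means of 0.67, 0.21 and 3.28 reads per window and at most 1.87 in WT, and 1 read in DKO 2 is worth several normalized counts. Their table as a whole was higher in 72.8% of the sites with a direction. Examples were chosen after their values were seen. In Ntm, a 7500-bp site had 36.23, 22.71 and 63.20 H3K27me3 counts in DKO against 270.27, 275.37 and 222.46 in WT, where H3K9me3 had 12.93, 20.72 and 16.10 against 0, 0.99 and 1.43. At a site 233 kb from the TSS of Ajap1 H3K27me3 was higher, with 55.47, 49.78 and 33.78 against 7.0, 5.43 and 4.47. H3K9me3 there had no read in DKO and 29.20, 11.33 and 15.76 counts in WT.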

How the data were processed

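The authors made libraries with CUT&Tag, demultiplexed them with CASAVA 1.8.4, trimmed reads with cutadapt 1.13 and aligned them to mm10 with STAR 2.5.3, per the labels' processing notes. Per the file headers, diffReps 1.55.6 compared 3 DKO with 3 WT libraries by a negative binomial test in 600-bp windows moved by 50 bp, kept windows under p = 0.0001 and merged them. The deposited values used are the normalized counts of each library per site, read counts divided by 1 constant per library. The columns of fold change, p-value, adjusted p-value and direction from the authors' comparison were not used, and 0 columns of single libraries were left over.

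Direction was set by non-overlap of the 3 libraries of each group, and size by log2 of the ratio of group means with a pseudocount of 1. No test was run, since sites had been selected on the same libraries and 3 against 3 allows no exact permutation p below 0.1. Replicates are mice, so spreads are between animals. Sites were annotated with GENCODE M21 gene models on mm10 (GRCm38) and base composition was read from GRCm38.p6. The table lists only differing sites, so identity of the sorted cells could not be checked from markers. Named genes were the 12 promoters and 4 distal sites per direction with the widest ratio of the lowest library of one group to the highest of the other (mean of the higher group at least 10), the 5 gene bodies per direction with the most sites, the deleted genes, Fbp1, Fbp2 and up to 4 members per gene list. Of these, 1 promoter is not reported here. The members and the 26 lists were chosen with earlier results of these data known. Of 112 named promoter genes, 76 had a RefSeq promoter sequence. Where a group held no read, folds use a floor of 3 reads over the group. Python 3.11.15, numpy 2.4.6, pandas 2.3.3, scipy 1.17.1 and matplotlib 3.10.9 were used, and the scripts passed 10 of 10 checks on simulated data. Alternatives were each library left out, another pseudocount, promoter width, direction rule, margin and scaling, and 2 scalings chosen after seeing the data (mean reads per window, GC bins).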

Additional observations from a re-analysis of the deposited data

How the results depend on the processing

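The sign of the promoter excess within GC bins was the same under the alternatives run, but which of the 2 directions held more sites was not (23460 higher and 25351 lower by the median ratio, 22641 and 24194 by mean reads per window, 19471 and 20276 within GC bins). The median-ratio and GC-bin factors were taken over the listed sites, which draws the numbers of higher and lower sites towards balance. The signs of the 2 median sizes are set by the rule that calls sites higher or lower, so only their sizes could move. With the groups required to be 1.5 times apart, 17312 sites were higher and 15923 lower, with a median of -1.87 for lower sites, 11.8% and 9.28% of higher and lower sites at promoters, and 61.1% with the same direction as at 24 w.p.i. Leaving out each library in turn gave 27719 to 29060 higher and 24736 to 25259 lower sites, medians of 1.58 to 1.85 and -1.70 to -1.56, promoter shares of 13.3% to 15.3% and 11.9% to 12.4%, a promoter excess within GC bins of 9.59 to 12.2 points, 58.9% to 60.5% for the 24-week comparison and 76.6% to 80.1% for H3K9me3. Direction by group means gave 16.2%, 13.1 points and 59.0% for the promoter share of higher sites, the promoter excess and the 24-week comparison. The median-ratio scaling gave -1.97 for lower sites, 12.3%, 6.96 points and 59.2%. Scaling to mean reads per window, chosen after seeing the data, gave -1.88, promoter shares of 11.2% and 11.02%, 6.32 points and 58.8%, and rescaling within GC bins, likewise, -1.93, 16.7% and 10.01%, and 14.0 points. A pseudocount of 5 gave medians of 1.27 and -1.22. Promoter shares of higher and lower sites were 27.9% and 22.1% at 3 kb, 6.76% and 7.07% at 250 bp (8.29 points) and 9.19% and 7.78% with protein-coding TSSs (12.97 points), so at 250 bp the order of the shares turns. Without GC bins the promoter excess was 3.71 points, and pairs within 1 kb gave 58.8%. Of the 119 named sites, promoter and distal together, 116 kept their direction after the median-ratio scaling, 109 after scaling to mean reads and 107 within GC bins, and none reversed. The 119 had been picked in order of the gap between the groups, so these numbers say little about other sites. Depth limits single sites, since at the shallowest library 1 read is worth 1.12 counts. No paired analysis was possible because the results come from no test.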

Other observations

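The antigen-receptor loci, which rearrange in lymphocytes, were looked at after the domains above had been seen. Of all autosomal sites listed, 46.8% were higher and 42.5% lower. In the immunoglobulin heavy-chain locus Igh (chromosome 12, 113572927 to 116010093, GRCm38) 98 of 111 sites were lower in DKO and 9 higher. Median counts over these sites were 4.53, 2.62 and 4.36 in DKO and 18.37, 20.83 and 13.41 in WT, a median log2 difference of -2.18, and 95 to 98 sites were lower under the 3 rescalings. The T-cell receptor locus Tra and Trd (chromosome 14, 52427928 to 54149294) went the other way, with 32 of 37 sites higher and 1 lower. Its medians were 14.72, 28.82 and 16.34 in DKO against 4.37, 5.43 and 6.71 in WT, and after rescaling within GC bins 15 sites were higher and 1 lower. The other loci held few sites, with 5 of 8 lower and 2 higher in Igk, 5 of 6 lower in Trg, 2 of 2 lower in Trb, and 1 each way in Igl. The share of B and T progenitors in each library was not measured, and its part in these values was not tested.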
